A study of Mus musculus with 10 samples.

Results

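Pla2g4c, the gene of cytosolic phospholipase A2 gamma, was examined with 7 further genes of prostaglandin metabolism: Pla2g4a and Pla2g10 of the phospholipase A2 family, the cyclooxygenase gene Ptgs2, the prostaglandin E synthase gene Ptges, the receptor gene Ptger4, and the catabolic genes Hpgd and Ptgr1. These 8 genes were found by name among 55487 genes of the expression table, and 7 of the 8 had a mean of at least 1 TPM, while Ptgs2 lay below that level. They were chosen by name with the difference between genotypes in these same libraries already known, and the difference of Pla2g4c was known to be among the largest. Their differences between genotypes are therefore given as a description, with no test.

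RNA was sequenced from intestinal epithelial cells (IECs) of the colon of C57BL/6J mice, 5 wild type (WT) and 5 homozygous RhoB knockouts (RhoB-/-), 1 library per mouse and with no treatment named in the labels. The comparison asked how loss of RhoB alters gene expression in the colonic epithelium. IECs were released from the opened colon with a calcium chelator and shaking, so cells lying within or beneath the epithelium can be carried along. The study's methods say that WT mice were bought from a supplier and that RhoB-/- mice were made at another centre. WT littermates are named for another experiment, and which WT mice were sequenced is not stated. The origin of the mice and the genotype therefore cannot be told apart. The methods give a general age range for the mice and call the bought WT mice male, but the labels give neither age nor sex.

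Prostaglandins are made from arachidonic acid, which phospholipases A2 cut from membrane phospholipids. Cyclooxygenases turn it into prostaglandin H2, terminal synthases turn that into prostaglandin E2 (PGE2) and its relatives, and G-protein-coupled receptors such as EP4 receive the signal. The signal ends by uptake into cells and oxidation, and in the colon PGE2 is best known for its part in epithelial repair, mucus secretion and tumour growth.

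The knocked-out gene was read first. Rhob stood between 170.5 and 389 TPM in the 5 WT libraries and between 0.09 and 0.57 TPM in the libraries labelled RhoB-/- replicates 1 to 4. The library labelled RhoB-/- replicate 5 held 110.9 TPM of Rhob, below every WT library but far above its group, and results are also given without it. Epithelial markers were abundant in all 10 libraries, with a sum over 9 genes between 20137 and 38682 TPM. The mean sum was 23024 TPM in WT and 30212 TPM in RhoB-/-, with overlapping groups. By limma, 3 of the 9 were called higher in RhoB-/- and 0 lower (Benjamini-Hochberg adjusted p below 0.05). Over all 12870 tested genes, 7.73% were called higher and 13.5% lower. Mitochondrially encoded genes took 10.3% to 26.5% of each library. TPM, a share of transcripts, is scaled by gene length and sums to nearly the same total in each library, so levels can be compared between genes, but it keeps no record of read depth, which is unknown here.

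The annotated starts of Pla2g4c are shown because it is the gene with the widest difference of the 8. Pla2g4c (ENSMUSG00000033847) lies on the forward strand of chromosome 7, at 13324655 to 13360672 in GRCm38, with 4 annotated transcripts in GENCODE M21. RefSeq gives 2 starts on GRCm38.p6, 3655 bases apart, at 13325667 and 13329322. The bases before each start are printed 5′ to 3′ on the forward strand up to the first annotated exon base, with capitals for TATAA, the core of a TATA box. The upstream window is chr7:13325417-13325628 and lies within an intron of 1 annotated transcript, and the downstream window is chr7:13329072-13329317 and lies within introns of 3.
Pla2g4c upstream start: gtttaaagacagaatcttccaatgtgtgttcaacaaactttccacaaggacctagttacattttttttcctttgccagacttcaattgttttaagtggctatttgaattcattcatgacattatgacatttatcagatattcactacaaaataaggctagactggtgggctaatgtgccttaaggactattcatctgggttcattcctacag
Pla2g4c downstream start: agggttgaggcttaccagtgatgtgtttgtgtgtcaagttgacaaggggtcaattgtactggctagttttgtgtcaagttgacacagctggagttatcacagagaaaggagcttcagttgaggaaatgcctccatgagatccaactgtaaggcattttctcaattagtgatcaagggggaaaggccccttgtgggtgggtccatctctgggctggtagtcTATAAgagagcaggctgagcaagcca

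TATAA was searched on the sense strand between 40 and 20 bases before each start, and only the downstream start of Pla2g4c carried it, 30 bases before. Among 32851 RefSeq promoters 3.31% held it there, and Ptgr1, with TATAA 31 bases before its start, was the other gene of the 8 that did. Neither Pla2g4c window held a CpG in its 250 bases, which was true of 7.87% of all promoters, whose median was 6 CpG. The core of the interferon-stimulated response element, searched as GAAANNGAA on both strands, was in none of the 10 starts of the 8 genes and in 7.13% of all promoters. The STAT core TTCNNNGAA, which reads the same on both strands, was likewise in none of the 10 and in 7.02% of all. A gene-level TPM does not say which start was used, and a match or its absence describes only the letters of these windows.

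Pla2g4c encodes a calcium-independent, membrane-bound enzyme of the cytosolic phospholipase A2 group, which lacks the calcium-binding domain of its relatives. Its level was 5.34, 0.52, 0.68, 0.57 and 1.3 TPM in WT replicates 1 to 5. In RhoB-/- replicates 1 to 5 it was 140.5, 116, 70.3, 50.4 and 139 TPM. The groups did not overlap: the lowest RhoB-/- library lay 9.44-fold above the highest WT library, and 4 of the 5 WT libraries were below 1.5 TPM. The mean was 1.68 ± 2.07 TPM in WT and 103 ± 40.9 TPM in RhoB-/- (SD, n = 5 each), a difference of 5.42 in mean log2(TPM + 1). Its standard error was 0.40, and the SD within genotypes on that scale was 0.77. Standard errors here and below come from limma, which moderates the spread of a gene by that of all tested genes. Within RhoB-/- the highest library held 2.79-fold the lowest, and within WT the spread was 10.3-fold, set by replicate 1.

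Without the library labelled RhoB-/- replicate 5, the RhoB-/- mean was 94.4 ± 41.3 TPM (n = 4) and the difference 5.29. Without WT replicate 1, the WT mean was 0.767 ± 0.361 TPM (n = 4) and the difference 5.80. A difference on the log2(TPM + 1) scale understates the change of a gene this low in WT, and with a pseudocount of 0.1 it was 6.32.

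**Figure D1:**
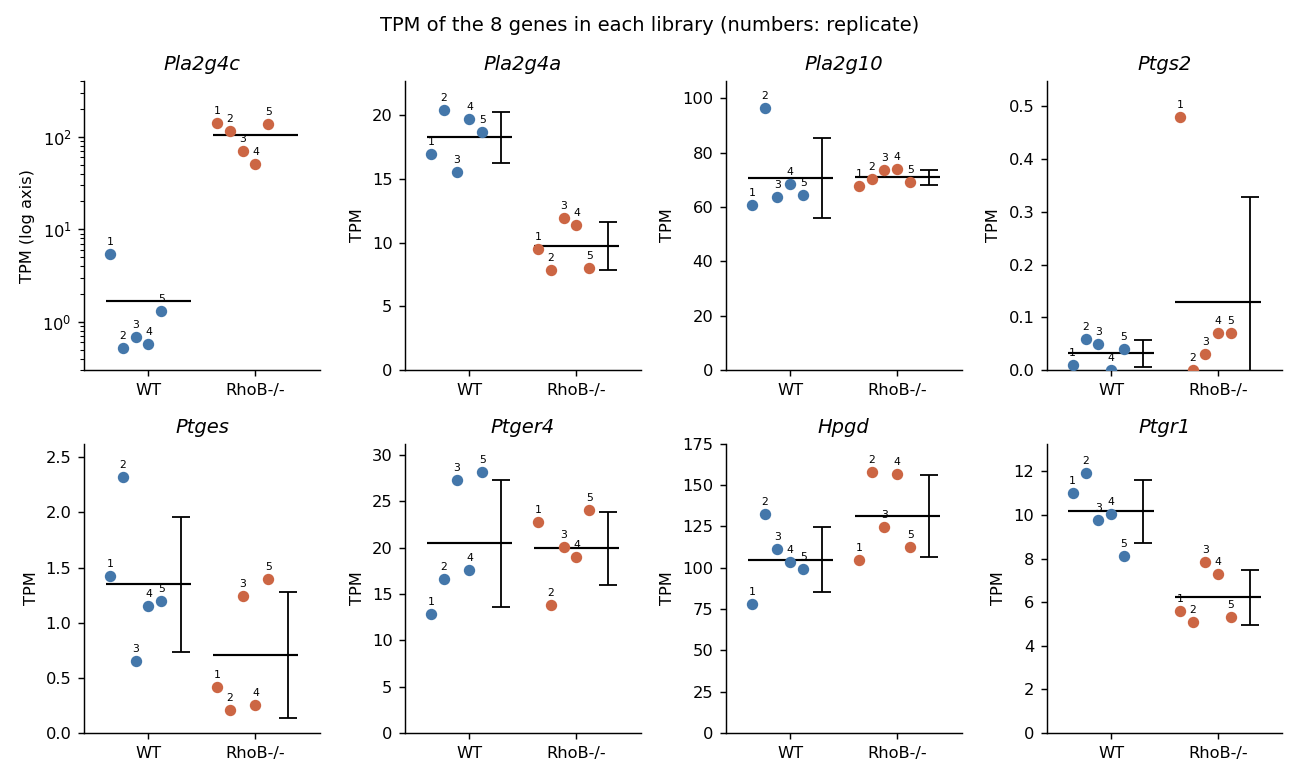
TPM of each of the 8 genes (vertical axis, logarithmic for Pla2g4c and linear for the others) in 5 WT libraries (blue) and 5 RhoB-/- libraries (red), numbered by replicate. Horizontal lines are group means and bars the SD over 5 libraries (not drawn for Pla2g4c, and cut at 0 for Ptgs2): the groups are apart for Pla2g4c, Pla2g4a and Ptgr1 and overlap for the other 5 genes.

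Little of the Pla2g4c sequence is shared with other genes. Of its 3717 distinct 31-base words in the GENCODE M21 transcripts, 5.03% also occur in the unprocessed pseudogene Pla2g4c-ps, which starts 0.438 kb downstream, and 6.54% in any other gene. Pla2g4c-ps was listed at 0 in 8 of 10 libraries and at no more than 0.11 TPM in the others. The next protein-coding genes on both sides, named for their position, held other levels. Lig1, a DNA ligase gene 13.2 kb upstream, had 19.0 ± 3.11 TPM in WT and 15.9 ± 5.19 TPM in RhoB-/- (limma, Benjamini-Hochberg adjusted p = 0.320), and Cabp5, 37.5 kb downstream, stayed at or below 0.26 TPM.

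Pla2g4a encodes cytosolic phospholipase A2 alpha, the calcium-dependent enzyme that prefers arachidonate. It lies on the reverse strand of chromosome 1 at 149829618 to 149961290, 138.7 kb from Ptgs2. Its level was 16.9, 20.4, 15.5, 19.7 and 18.7 TPM in WT replicates 1 to 5. In RhoB-/- it was 9.49, 7.85, 11.9, 11.4 and 8.01 TPM, so every RhoB-/- library lay below every WT library. The means were 18.2 ± 1.99 and 9.73 ± 1.88 TPM (SD, n = 5 each), a difference of -0.85 with a standard error of 0.13, and -0.79 without the library labelled RhoB-/- replicate 5.

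Pla2g10 encodes a secreted phospholipase A2 and lies on the reverse strand of chromosome 16 at 13715057 to 13730983. It held 60.6, 96.4, 63.7, 68.4 and 64.3 TPM in WT and 67.7, 70.3, 73.6, 73.9 and 69.1 TPM in RhoB-/-. The groups overlapped and the difference was 0.03 (standard error 0.13), with WT replicate 2 the highest of the 10 libraries. The annotation places the antisense gene Pla2g10os across its start, with a mean of 17.8 ± 4.31 TPM among WT and 11.6 ± 1.68 TPM among RhoB-/- libraries. Reads from the stretch that the pair shares could be told apart only by strand. The study's methods name an orientation mode for the alignment and do not state whether the counting used strand.

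Summed over the 22 phospholipase A2 genes of the cytosolic, calcium-independent and secreted groups, Pla2g4c made up 0.896% ± 1.18 of the TPM in WT and 33.4% ± 9.99 in RhoB-/- (SD, n = 5 each). Its share ran from 0.211% to 2.99% over the WT libraries and from 21.6% to 41.2% over the RhoB-/- libraries. The 22 genes include Pla2g2a, annotated as a polymorphic pseudogene. The other 21 genes summed to 203 ± 26.4 TPM in WT and 198 ± 24.1 TPM in RhoB-/-, so outside Pla2g4c the sums overlapped. Pla2g10 was the highest of the 22 genes in every WT library, and Pla2g4c stood above it in RhoB-/- replicates 1, 2 and 5 and below it in replicates 3 and 4.

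**Figure D2:**
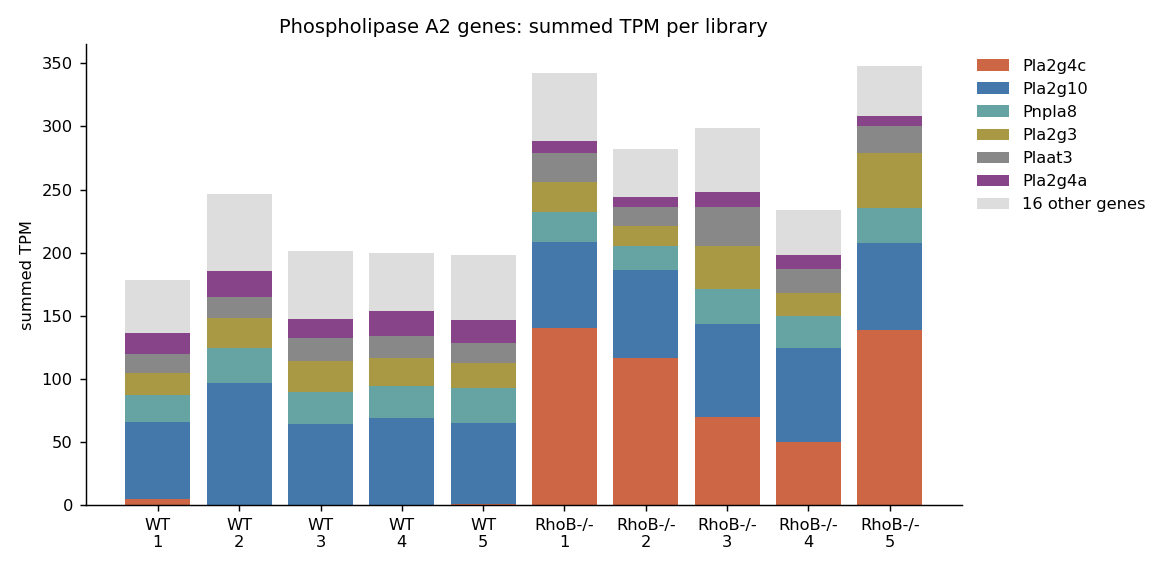
Summed TPM of 22 phospholipase A2 genes (vertical axis) in each of the 10 libraries (horizontal axis), with 6 genes coloured and 16 others in light grey. Pla2g4c fills 21.6% to 41.2% of the RhoB-/- bars and at most 2.99% of the WT bars, while the part of the bars above it is of like height in both genotypes.

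Ptgs2, which encodes the inducible cyclooxygenase COX-2, lies on the forward strand of chromosome 1 at 150100031 to 150108227 and was barely detected. It was listed at 0.01, 0.06, 0.05, 0 and 0.04 TPM in WT and at 0.48, 0, 0.03, 0.07 and 0.07 TPM in RhoB-/-. Only RhoB-/- replicate 1 exceeded 0.1 TPM: the difference was 0.12 with it and 0.01 without it, and the groups overlapped. Ptgs1, the constitutive cyclooxygenase COX-1 and a gene of the wider pathway rather than of the 8, was also below a mean of 1 TPM over the 10 libraries. It held 0.58, 0.67, 0.24, 0.4 and 0.36 TPM in WT against 1.18, 1.05, 1.02, 1.28 and 2.16 TPM in RhoB-/-, and every RhoB-/- library lay above every WT library. The ratio of its means was 2.97, and 2.52 without the library labelled RhoB-/- replicate 5, which was the highest. An exact two-sided permutation test gave an unadjusted p = 0.00794, the smallest that 5 against 5 libraries allow; 9.38% of the genes below a mean of 1 TPM had an exact p below 0.05.

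Ptges encodes the inducible microsomal prostaglandin E synthase and lies on the reverse strand of chromosome 2 at 30889471 to 30929863. Its level was 1.42, 2.32, 0.65, 1.15 and 1.2 TPM in WT and 0.42, 0.21, 1.24, 0.25 and 1.4 TPM in RhoB-/-. Of the RhoB-/- libraries 3 lay below every WT library and 2 within the WT range, so the groups overlapped. The difference was -0.49 (standard error 0.26), and -0.63 without the library labelled RhoB-/- replicate 5. The other PGE synthases were far more abundant and were not called by limma. Ptges2 averaged 25.2 ± 2.84 and 23.9 ± 6.26 TPM (log2 difference -0.10, adjusted p = 0.675), and Ptges3, the cytosolic synthase also known as the chaperone p23, averaged 50.7 ± 3.81 and 49.9 ± 12.8 TPM (-0.06, adjusted p = 0.820). The sign of both turned under median centring of the libraries.

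Ptger4 encodes EP4, the PGE2 receptor that raises cyclic AMP, and lies on the reverse strand of chromosome 15 at 5206661 to 5244187. The protein-coding gene Ttc33 lies across part of it on the other strand, with 10.7 ± 1.16 TPM in WT and 10.1 ± 1.61 TPM in RhoB-/-. Here, too, reads from the stretch that the pair shares could be told apart only by strand. Ptger4 held 12.8, 16.6, 27.3, 17.6 and 28.1 TPM in WT and 22.7, 13.8, 20.03, 19.0 and 24.1 TPM in RhoB-/-. The groups overlapped throughout, with means of 20.5 ± 6.85 and 19.9 ± 3.96 TPM and a standard error of 0.22 around a log2 difference of -0.0011. It was the most abundant of the 4 EP receptor genes in every library. Ptger3, which encodes the EP3 receptor that lowers cyclic AMP, fell from 2.39 ± 0.346 to 1.42 ± 0.329 TPM (log2 difference -0.49, standard error 0.15, limma Benjamini-Hochberg adjusted p = 0.0382). Its groups did not overlap, but the call was lost under 13 of 17 alternatives, with a difference of -0.47 without the library labelled RhoB-/- replicate 5 (adjusted p = 0.0772). Ptger1 (difference 0.17, exact permutation p = 0.214) and Ptger2 (-0.04, exact permutation p = 0.135) stayed below 1.2 TPM in all 10 libraries, and the sign of Ptger2 turned under median centring. The exact permutation p of Ptger1 was 0.0317 with median centring, and that of Ptger2 was 0.0397 without WT replicate 3.

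Hpgd encodes the dehydrogenase that takes the first step in inactivating prostaglandins, and lies on the forward strand of chromosome 8 at 56294585 to 56321043. It was the most abundant of the 8 genes on average in both genotypes, at 77.8, 132, 111, 104 and 99.1 TPM in WT. In RhoB-/- it held 105, 158, 125, 157 and 113 TPM. Each RhoB-/- library lay above the WT median, yet the groups overlapped, and the difference was 0.32 (standard error 0.16) or 0.38 without the library labelled RhoB-/- replicate 5.

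Ptgr1 encodes prostaglandin reductase 1, which acts on the keto product of Hpgd and on leukotriene B4, and lies on the reverse strand of chromosome 4 at 58965439 to 58987119. It held 11, 11.9, 9.76, 10.04 and 8.11 TPM in WT and 5.6, 5.07, 7.84, 7.31 and 5.3 TPM in RhoB-/-. Every RhoB-/- library lay below every WT library, although the gap between 7.84 and 8.11 TPM was narrow. The means were 10.2 ± 1.44 and 6.22 ± 1.26 TPM (SD, n = 5 each), a difference of -0.64 with a standard error of 0.14, and -0.59 without the library labelled RhoB-/- replicate 5.

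The groups of 3 of the 8 genes did not overlap, Pla2g4c higher and Pla2g4a and Ptgr1 lower in RhoB-/-, where 14.5% of the 12870 genes with a mean of at least 1 TPM had groups that did not overlap. Because the 8 genes were chosen on this contrast, nothing is read from this count. The median log2 difference of the 12870 genes was -0.13 rather than 0, and centring the libraries on their median raised every difference by 0.115 without turning a sign among the 8 except that of Ptger4, which lay near 0. In a bulk library, fewer cells of a type and less RNA per cell cannot be told apart, for these genes as for those below.

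By level, WT libraries ran from Hpgd and Pla2g10 at the top, through Ptger4, Pla2g4a and Ptgr1, to Pla2g4c, Ptges and Ptgs2. Hpgd and Pla2g10, Ptger4 and Pla2g4a, and Pla2g4c and Ptges overlapped in their ranges, whereas Pla2g4a and Ptgr1 did not. In RhoB-/- the order was the same except that Pla2g4c stood between Hpgd and Pla2g10 and its range overlapped both. In level, Pla2g4c exceeded 8.10% of the 12870 genes in WT and 91.6% in RhoB-/-.

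The wider pathway was read from a list of 82 other eicosanoid genes, of which 50 had a mean of at least 1 TPM and were tested with limma. The list was drawn up with earlier results of these data known, so its shares are a description. In RhoB-/-, 3 rose (6%), 13 fell (26%) and 34 were not called, against 7.73% and 13.5% of all 12870 tested genes (Benjamini-Hochberg adjusted p below 0.05 over all of them), and the groups of 10 of the 50 (20%) did not overlap. The median log2 difference over the 50 was -0.10, beside -0.13 over all tested genes. These shares and this median of all tested genes are also the background of the counts by role that follow. With median centring of the libraries the split was 8 higher and 7 lower in the list, and 2010 higher and 1645 lower over all genes in place of 995 and 1734. Without the library labelled RhoB-/- replicate 5, 2 of the list were called higher and 7 lower.

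**Figure D3:**
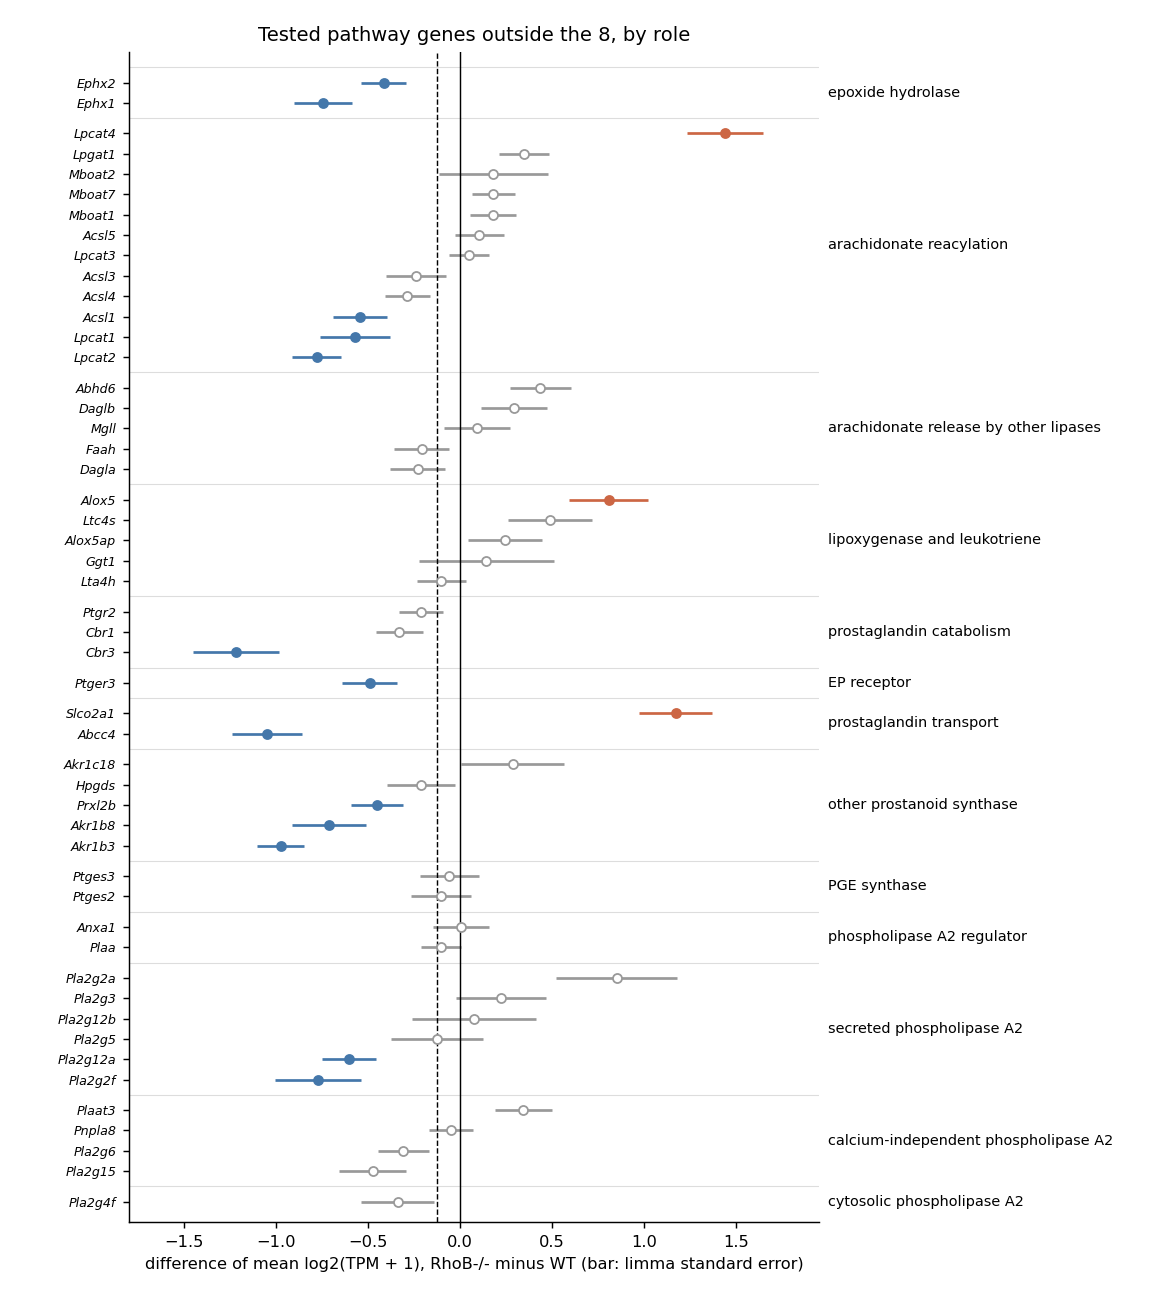
Difference of mean log2(TPM + 1), RhoB-/- minus WT, for the 50 tested genes of the list (horizontal axis), grouped by role, with bars for the limma standard error. Filled red points were called higher (3 genes), filled blue points lower (13) and open points not called (34), and the dashed line marks the median of all tested genes, -0.13.

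Among the phospholipases, none of the 5 tested genes of the cytosolic and calcium-independent groups outside the 8 was called. Pla2g4f, the only other cytosolic one above 1 TPM, ran from 3.09 to 7.79 TPM in WT and from 2.7 to 4.65 TPM in RhoB-/-. Of 6 tested genes of the secreted group 2 fell. Among the 6, Pla2g2a is annotated as a polymorphic pseudogene and was not called. Pla2g12a went from 9.77 ± 0.834 to 6.22 ± 1.71 TPM (log2 difference -0.60, adjusted p = 0.0151), and Pla2g2f from 9.70 ± 2.67 to 5.44 ± 2.45 TPM (-0.77, adjusted p = 0.0375), a call lost under 11 of 18 alternatives, with a difference of -0.70 without the library labelled RhoB-/- replicate 5 (adjusted p = 0.0876).

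Of the transport genes, both that could be tested changed, in opposite directions. Slco2a1 encodes the transporter that takes up prostaglandins for oxidation by Hpgd, and it held 6.04, 10.1, 10.7, 9.91 and 9.3 TPM in WT against 19.3, 18.6, 18.1, 20.1 and 36.3 TPM in RhoB-/-. The rise of 1.17 on the log2 scale (standard error 0.20, adjusted p = 0.00210) was 0.99 without the library labelled RhoB-/- replicate 5 (adjusted p = 0.00166). Abcc4, which encodes the exporter MRP4, held 2.75, 4.34, 1.89, 4.11 and 3.91 TPM in WT against 1.05, 1.13, 1.03, 1.42 and 0.79 TPM in RhoB-/-. It fell by 1.05 on the log2 scale (standard error 0.19, adjusted p = 0.00309), and for both genes the groups did not overlap.

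Beside Hpgd and Ptgr1, the catabolic group held 3 tested genes, of which Cbr3 fell. Cbr3, a carbonyl reductase, had 80.4, 72.6, 78.0, 92.5 and 79.2 TPM in WT and 21.1, 40.02, 28.8, 63.7 and 28.8 TPM in RhoB-/-. The log2 difference was -1.22 (standard error 0.23, adjusted p = 0.00436), with RhoB-/- replicate 4 nearest to the WT range. Its more abundant paralog Cbr1 averaged 421.5 ± 42.2 and 337 ± 50.7 TPM (-0.33, adjusted p = 0.0852), and Ptgr2, a second reductase of keto prostaglandins, 39.4 ± 5.29 and 33.8 ± 3.99 TPM (-0.21, adjusted p = 0.214). Cbr1 was called lower under 2 scalings, quantile normalization and leaving out mitochondrially encoded genes.

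Synthases of other prostanoids gave 3 falls among 5 tested genes and no rise, where 13.5% of all tested genes were called lower. Akr1b3, aldose reductase, which can also make prostaglandin F2α, held 63.2, 72.7, 58.9, 67.2 and 53.2 TPM in WT and 27.4, 30.5, 36.1, 37.7 and 26.8 TPM in RhoB-/-. It fell by 0.97 on the log2 scale (standard error 0.13, adjusted p = 3.53e-04), with no overlap. Its paralog Akr1b8 (-0.71, adjusted p = 0.0277) and Prxl2b, a prostamide and prostaglandin F synthase (-0.45, adjusted p = 0.0434), lost their calls under 8 and 13 of 18 alternatives. Without the library labelled RhoB-/- replicate 5, 1 of these, the differences were -0.70 and -0.49 (adjusted p = 0.0588 and 0.0569). Reads may be split between Akr1b3 and Akr1b8, as between Cbr1 and Cbr3, and Akr1b3 and Prxl2b overlap genes on the other strand.

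**Figure D4:**
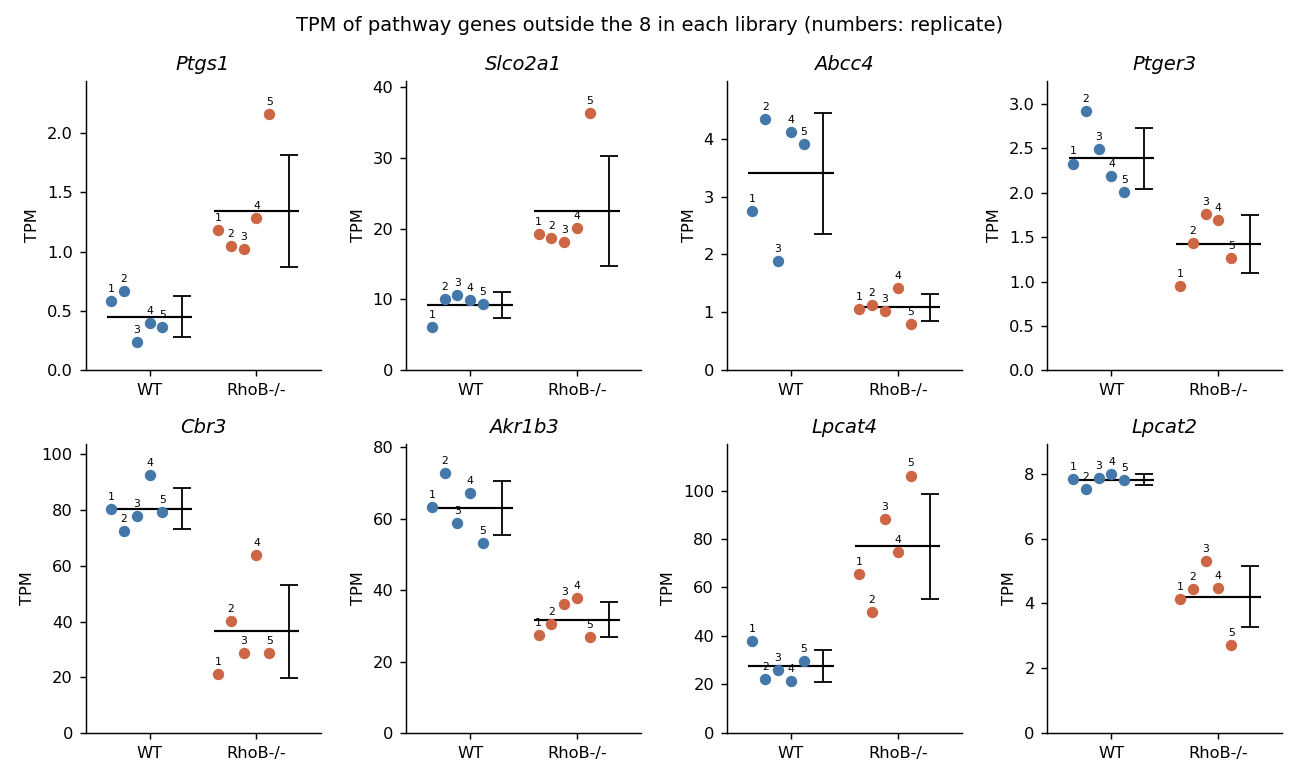
TPM of 8 pathway genes outside the 8 described first (vertical axes, linear from 0) in WT (blue) and RhoB-/- (red) libraries, numbered by replicate, with the mean as a line and the SD over 5 libraries as a bar. Groups are apart in all 8 panels, and the library labelled RhoB-/- replicate 5 is the highest for Ptgs1, Slco2a1 and Lpcat4.

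Genes that return arachidonate and other fatty acids to phospholipids, the reverse of phospholipase A2 action, gave 1 rise and 3 falls among 12 tested. Lpcat4, a lysophospholipid acyltransferase, held 37.7, 22.3, 26.1, 21.4 and 29.5 TPM in WT and 65.7, 49.8, 88.4, 74.7 and 106 TPM in RhoB-/-, a rise of 1.44 (standard error 0.20, adjusted p = 6.47e-04). Its relative Lpcat2, which also makes platelet-activating factor, fell from 7.81 ± 0.169 to 4.21 ± 0.940 TPM (-0.78, standard error 0.13, adjusted p = 0.00224). Lpcat1 (-0.57, adjusted p = 0.0494) and the acyl-CoA synthetase gene Acsl1 (-0.54, adjusted p = 0.0228) also fell, with calls lost under 12 of 17 and 5 of 18 alternatives. Without the library labelled RhoB-/- replicate 5, 1 of these, their differences were -0.51 and -0.53 (adjusted p = 0.109 and 0.0503).

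In the lipoxygenase branch, which makes leukotrienes from the same arachidonate, 1 of 5 tested genes was called. Alox5, the lipoxygenase itself and a gene of leukocytes and tuft cells, rose from 0.918 ± 0.523 to 2.30 ± 0.565 TPM (0.81, adjusted p = 0.0215), a call lost under 3 of 17 alternatives, with a difference of 0.74 without the library labelled RhoB-/- replicate 5 (adjusted p = 0.0555). Both epoxide hydrolases fell, Ephx1 from 8.59 ± 0.810 to 4.83 ± 1.35 TPM (-0.74, adjusted p = 0.00733) and Ephx2 from 15.4 ± 2.05 to 11.3 ± 1.57 TPM (-0.42, adjusted p = 0.0345). The Ephx2 call was lost under 11 of 18 alternatives, with a difference of -0.44 without the library labelled RhoB-/- replicate 5 (adjusted p = 0.0520). None of the 5 other lipases that can release arachidonate was called, and none of the 5 other prostanoid receptors reached a mean of 1 TPM.

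Markers of other cells moved with genotype and are set beside Pla2g4c as values. The lists were chosen with earlier results of these data known. For the counts of this paragraph and the next, 7.73% of all tested genes were called higher and 13.5% lower. The sum of 10 leukocyte genes was 15.2, 8.19, 6.39, 8.22 and 15.1 TPM in WT and 35.8, 26.0, 28.9, 25.4 and 37.0 TPM in RhoB-/-, and 6 of the 7 tested were called higher. The sum of 8 tuft cell genes was 22.7, 8.6, 8.56, 8.65 and 11.1 TPM in WT and 22.9, 29.9, 23.9, 35.4 and 29.1 TPM in RhoB-/-, with 4 of 5 tested called higher. WT replicate 1, which had the highest Pla2g4c of the WT libraries, also had the highest WT sum of both lists. Within RhoB-/-, replicate 1 had the highest Pla2g4c with the lowest tuft sum and replicate 4 the lowest Pla2g4c with the highest tuft sum. For both Pla2g4c and the leukocyte sum, replicate 4 was lowest and replicates 1 and 5 were highest. Replicate 2 had more Pla2g4c than replicate 3 (116 against 70.3 TPM), with a lower leukocyte sum (26.0 against 28.9 TPM) and a higher tuft sum (29.9 against 23.9 TPM). No gene of either list was at 0 in every library, and their part in the Pla2g4c difference was not tested.

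The sum of 12 interferon-stimulated genes ran from 96.3 to 162 TPM in WT and was 1150, 1486, 1545, 2146 and 2281 TPM in RhoB-/- replicates 1 to 5, with 12 of 12 called higher. Within RhoB-/-, replicate 1 had the highest Pla2g4c and the lowest interferon sum, replicate 4 the lowest Pla2g4c with a sum below only that of replicate 5, and replicate 5 the highest sum with Pla2g4c at 139 TPM, just below replicate 1. Mast cell and granulocyte genes summed to 13.4 to 35.2 TPM in WT and 56.1 to 109.6 TPM in RhoB-/- (2 of 2 tested higher), and Mcpt4, S100a8 and S100a9 were at 0 in every WT library. Fibroblast and smooth muscle genes summed to 4.85 to 6.86 TPM in WT (1 of 3 tested higher in RhoB-/-). In RhoB-/- replicates 1 to 5 they summed to 7.21, 7.77, 7.54, 16.7 and 37.0 TPM, so replicates 4 and 5 set the upper range. Macrophage and endothelial sums overlapped between genotypes. The part of these lists in the differences of Pla2g4c, Ptgs1 and Alox5 was not tested.

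**Figure D5:**
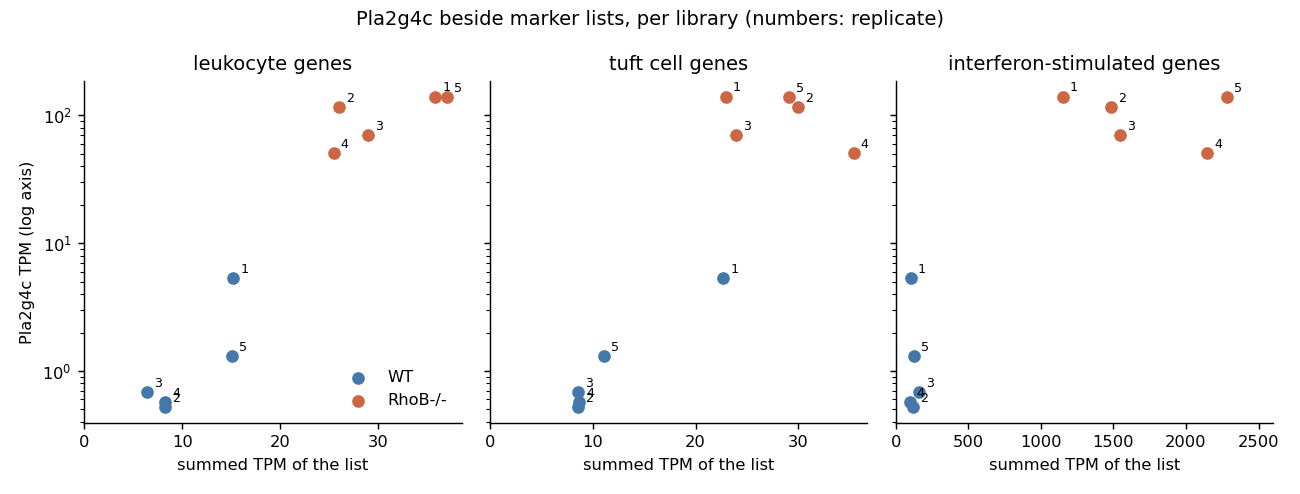
Pla2g4c TPM (vertical axis, logarithmic) against the summed TPM of 10 leukocyte, 8 tuft cell and 12 interferon-stimulated genes (horizontal axes, linear) in each library, WT in blue and RhoB-/- in red, numbered by replicate. All 3 sums separate the genotypes, and WT replicate 1 lies at the upper end of the WT leukocyte and tuft sums. Within RhoB-/- none of the 3 sums puts the libraries in the exact order of Pla2g4c. For Pla2g4c and the leukocyte sum, replicates 1 and 5 are highest and replicate 4 is lowest. Replicates 1 and 5 trade places between these measures, and so do the remaining RhoB-/- libraries. The part of the 3 sums in the Pla2g4c difference was not tested.

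The genes most like Pla2g4c were taken from deviations from the genotype mean of log2(TPM + 1) over the 10 libraries, which removes the genotype difference itself. The 10 with the highest Pearson r were Ccdc88b (0.91), Gm42566 (0.87), Itgae (0.85), Dclk1 (0.85), Cd3g (0.83), Trbc1 (0.80), Mamdc4 (0.79), Gm46432 (0.79), 4931440P22Rik (0.79) and Zc2hc1a (0.79). The lowest were Il11ra1 (-0.97), Arrdc2 (-0.94) and D830050J10Rik (-0.93). These are descriptions over points that share a library and its depth. WT replicate 1 carried much of the order, since leaving it out, an alternative chosen after seeing the data, kept 1 of the 10 genes among the top 10, while leaving out the library labelled RhoB-/- replicate 5 kept 7 and Spearman's correlation kept 5. On the same measure, the r with Pla2g4c was -0.76 for Hpgd, -0.58 for Pla2g4a, -0.53 for Pla2g10, -0.37 for Ptgr1, -0.28 for Ptger4, 0.11 for Ptges, 0.20 for Ptgs2 and -0.02 for Isg15, an interferon-stimulated gene. For the mean log2(TPM + 1) of a marker list, r was 0.67 for leukocyte, 0.60 for tuft cell and -0.15 for interferon-stimulated genes. The other lists ran from -0.18 to 0.19. Itgae and Cd3g belong to the leukocyte list and Dclk1 to the tuft cell list. WT replicate 1 is included in these values and carries much of the tuft cell r. Its tuft mean was 1.69, against 0.90 to 1.10 in the other WT libraries. Within RhoB-/-, the library highest in Pla2g4c had the lowest tuft mean, and the library lowest in Pla2g4c had the highest. A link of these genes or lists with Pla2g4c was not tested.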

How the data were processed

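The data are RNA-seq of colonic IECs, 1 library for each of 5 WT and 5 RhoB-/- mice. Groups follow the genotype and number in the sample titles. The authors prepared TruSeq libraries for paired-end Illumina sequencing, used SeqPrep and Sickle for trimming and HISAT2 for alignment, and obtained gene abundances through StringTie and RSEM. The submitters' processing notes also name edgeR and the build GRCm38.p6, and tool versions are not given in the sources used here. The deposited TPM values, rounded to 2 decimals, were used unchanged, and edgeR was not applied because TPM is not a count.

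The 8 genes and all lists were chosen with earlier results of these data known. Genes with a mean of at least 1 TPM (12870 of 55487) were fitted as log2(TPM + 1) with limma 3.58.1 in R 4.3.3 (lmFit, eBayes with trend), and called at a Benjamini-Hochberg adjusted p below 0.05 over all 12870; every adjusted p in the text comes from this fit or a named alternative of it. The 8 genes were given no test, but the standard errors printed for them come from this fit. The pathway list is textbook eicosanoid genes: all genes of the roles cyclooxygenase, PGE synthase, EP receptor and prostaglandin catabolism are named, and called genes of the other roles in order of adjusted p, up to 25. Other genes named (Lig1, Cabp5, Pla2g4c-ps, Pla2g10os, Ttc33, Isg15, Pla2g4f, Pla2g2a and the low genes of the last part) were chosen after their values were seen. Below the filter an exact two-sided permutation test over all exchanges of the 10 libraries was used. p-values measure the spread between mice, and read depth and its counting error are unknown. Alternatives were the pseudocount, the filter, quantile normalization, median centring, leaving out mitochondrially encoded genes, no trend, a replicate block, another call rule and leaving out each library. Positions and overlaps come from GENCODE M21 (GRCm38), and start windows from RefSeq, where all 8 genes matched with 10 starts.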

Additional observations from a re-analysis of the deposited data

Results flagged for a closer look

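In groups of 5 libraries, a library was marked when its gap to the nearest other exceeded Dixon's critical value as a share of the group's range. Of 64 groups examined 7 were marked, where chance, at about 1 in 20, gives 3.2. Rhob in the library labelled RhoB-/- replicate 5 stood at 110.9 TPM, far above the other RhoB-/- libraries. Pla2g4c in WT replicate 1 stood at 5.34 TPM, above the other WT libraries. Pla2g10 in WT replicate 2 stood at 96.4 TPM and Ptgs2 in RhoB-/- replicate 1 at 0.48 TPM. Of the wider pathway, Ptgs1 and Slco2a1 in the library labelled RhoB-/- replicate 5 stood at 2.16 and 36.3 TPM, and Akr1b8 in RhoB-/- replicate 4 at 124.6 TPM, within the WT range.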

How the results depend on the processing

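The differences of the 8 genes kept their size within 1 SD of the replicates in 117 of 120 alternatives, and the exceptions came with a pseudocount of 0.1: Pla2g4c 6.32, Ptgs2 0.51 and Ptges -1.06. Leaving out each library in turn gave 5.28 to 5.80 for Pla2g4c. The calls of Cbr3, Akr1b3, Lpcat4, Slco2a1, Lpcat2, Abcc4, Ephx1 and Pla2g12a held under every alternative run, and those of Ptger3, Prxl2b, Lpcat1, Ephx2, Pla2g2f, Akr1b8, Acsl1 and Alox5 were lost under some. With median centring the signs of Ptges2 (0.0115), Ptges3 (0.0571) and Ptger2 (0.0786) turned. With a library left out, Ptges2 ran from -0.218 (without RhoB-/- replicate 3) to 0.0076 (without replicate 1) and Ptges3 from -0.174 (without RhoB-/- replicate 3) to 0.0754 (without replicate 2). A mean of at least 5 TPM left no value for Ptger3, Abcc4, Alox5 and Lpcat1.

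Pathway genes called higher (3) were 6 without a filter, 7 with quantile normalization, 8 with median centring and 2 to 4 with a library left out. Those called lower (13) were 7 without a filter, 7 with median centring, 8 at an unadjusted p with a fold of 1.5, and 6 (without WT replicate 4) to 14 (without RhoB-/- replicate 3) with a library left out, with 7 or 8 without RhoB-/- replicates 1, 2, 4 or 5 or WT replicates 2 or 3. Over all genes, those called higher (995) were 1585 with quantile normalization, 2010 with median centring and 719 (without RhoB-/- replicate 5) to 1154 with a library left out. Those called lower (1734) were 1104 at a mean of 5 TPM, 3729 without mitochondrially encoded genes, 1059 with the replicate block, 1072 at an unadjusted p with a fold of 1.5, and 853 (without WT replicate 4) to 2868 (without RhoB-/- replicate 3) with a library left out. The cause was not tested.

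The labels name no pairing of mice by replicate number, and none was seen. Deviations of same-numbered libraries correlated at -0.087 to 0.072, and 1 of 5 WT libraries correlated best with its own number. Low correlations cannot exclude a shared handling of same-numbered libraries. With the replicate block, 3 pathway genes were called higher and 9 lower.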

Other observations

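Below a mean of 1 TPM lay 32 pathway genes, of which Pla2g1b was at 0 in every library. An exact two-sided permutation test gave an unadjusted p below 0.05 for 8 of the 32, beside 9.38% of 15244 genes below that level and above 0 in at least 1 library. These 8 were Ptgs1 and, named after their values were seen, Pla2g4d, Pla2g2e, Ptgis, Tbxas1, Ltb4r1, Alox8 and Aloxe3. Ltb4r1, a leukotriene B4 receptor gene, held 0.05 to 0.35 TPM in WT and 0.38 to 0.79 TPM in RhoB-/-, with no overlap (p = 0.00794, exact). Tbxas1, thromboxane synthase, held 0.01 to 0.29 TPM in WT and 0.24 to 0.51 TPM in RhoB-/- (p = 0.0238, exact). Pla2g4d, another cytosolic phospholipase A2, held 0.03 to 0.26 TPM in WT and at most 0.02 TPM in RhoB-/- (p = 0.00794, exact). At these levels the number of reads behind a value is unknown.

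Pla2g10os, antisense to Pla2g10, was called lower in RhoB-/- (log2 difference -0.55, limma Benjamini-Hochberg adjusted p = 0.0381) and its groups overlapped, while Pla2g10 differed by 0.03. The unequal difference of the pair was not tested.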
